A study of Mus musculus with 6 samples.

Results

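miR-143-3p and miR-145a-5p are the guide strands, the arms that are loaded into silencing complexes, of neighbouring microRNA (miRNA) hairpins processed from one primary transcript. Both names were looked up in a table of 1927 mature miRNAs counted in extracellular vesicles (EVs) of mouse bone, and both were found, 2 of 1927 names. Small RNA was sequenced from small EVs (sEVs, 3 libraries) and large EVs (lEVs, 3 libraries). The vesicles came from crushed tibias and femurs of untreated Swiss-CD1 mice, males of 8 weeks, whose soft tissue, bone ends and marrow had been removed. lEVs were the pellet of a spin at 10000 g for 30 min, and sEVs were taken from a sucrose cushion after a spin at 100000 g for 70 min. Vesicle size, spin and cushion therefore differ together and cannot be told apart. Whether the replicates are separate animals or repeats of one preparation is not in the labels, so all p-values rest on a spread between libraries that may be technical.

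The miR-143/145 cluster is best known from smooth muscle. There its transcription is driven by serum response factor with myocardin, and the mature miRNAs repress factors such as KLF4, KLF5 and ELK1, which favours the contractile over the proliferative state. Fibroblasts, pericytes and other mesenchymal cells also express it, endothelial cells have been described as passing both miRNAs to smooth muscle in vesicles, and in osteoblast cultures both have been reported to target Sp7 (osterix), a transcription factor of bone-forming cells. In the GENCODE M21 annotation of GRCm38 the hairpin gene Mir143 lies on the minus strand of chromosome 18 from 61649196 to 61649258, and Mir145a on the same strand from 61647825 to 61647894, with 1301 bases between them. Neither overlaps another annotated gene. The annotated end of the noncoding host transcript Carmn lies 366 bases upstream of Mir143, so both hairpins fall downstream of it in this annotation. A separate gene, Mir145b, lies on the same chromosome from 69022199 to 69022273, and miR-145b was listed at 0 in each of the 6 libraries.

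The sEVs libraries held between 75486 and 114331 counts and the lEVs libraries between 47441 and 92502, the lowest being lEVs replicate 1. The scaling between libraries used TMM factors, which bring most miRNAs to a common level and ranged from 0.952 to 0.974 in sEVs and from 0.853 to 1.18 in lEVs. Values given as CPM are counts put on one common scale with library totals and these factors. Of the 145 miRNAs with enough counts to be tested, 25 differed between the fractions, 17.2% (edgeR's quasi-likelihood test, Benjamini-Hochberg adjusted p under 0.05). Of these, 12 were higher in sEVs, 8.28% of those tested, and 13 were lower in sEVs, 8.97%.

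The difference between the fractions passed the test for one strand of the cluster and for the ratio of both. miR-143-3p, one of the most abundant miRNAs of bone vesicles, was 1.57-fold higher in sEVs and passed the test. miR-145a-5p, roughly at the middle of the abundance order of tested miRNAs, averaged lower in sEVs and missed the threshold. The ratio of the pair within a library, which needs no scaling between libraries, was 2.99-fold higher in sEVs and passed the test.

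miR-143-3p had 2121, 3375 and 3985 counts in sEVs replicates 1, 2 and 3, against 713, 2605 and 2167 counts in lEVs replicates 1, 2 and 3. In CPM these were 29270, 35680 and 35776 in sEVs, against 17617, 23916 and 22382 in lEVs. The sEVs libraries all stood above the lEVs libraries on this scale, and lEVs replicate 1 was the lowest of the 6. The mean was 33575 ± 3729 CPM in sEVs, against 21305 ± 3285 CPM in lEVs (SD, n = 3 each). The log2 fold change of sEVs over lEVs was 0.65 (SE 0.16; edgeR adjusted p = 0.0231). Groups that do not overlap in CPM were common in this table, 44.1% of the tested miRNAs.

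As a share of all counts in a library, miR-143-3p took 2.81%, 3.40% and 3.49% of sEVs replicates 1, 2 and 3, against 1.5%, 2.82% and 2.50% of lEVs replicates 1, 2 and 3. The exact 95% binomial interval ran from 2.69% to 2.93% in sEVs replicate 1 and from 2.71% to 2.92% in lEVs replicate 2. On this scale the fractions overlapped, since the share of sEVs replicate 1 lay slightly below that of lEVs replicate 2. The intervals of these libraries overlapped too. The mean share was 3.23% ± 0.368 in sEVs, against 2.27% ± 0.686 in lEVs (SD, n = 3 each; two-sided exact permutation p = 0.2, where 0.1 is the smallest that 3 against 3 libraries allow). Scaled by library totals, the log2 fold change was 0.51 and missed the threshold (edgeR adjusted p = 0.109). The call was also lost without sEVs replicate 2 (adjusted p = 0.125), sEVs replicate 3 (0.120) or lEVs replicate 3 (0.102). Intervals cover counting error only, and whether reads or molecular identifiers were counted is not given in the sources used here.

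miR-145a-5p had 30, 18 and 28 counts in sEVs replicates 1, 2 and 3, against 19, 77 and 45 counts in lEVs replicates 1, 2 and 3. These are 414, 190 and 251 CPM in sEVs, against 469, 707 and 465 CPM in lEVs. The sEVs libraries all stood below the lEVs libraries, with sEVs replicate 1 close to lEVs replicates 1 and 3, and lEVs replicate 2 well above the other 5. The mean was 285 ± 116 CPM in sEVs, against 547 ± 138 CPM in lEVs (SD, n = 3 each), and the log2 fold change was -1.0 (SE 0.32; edgeR adjusted p = 0.0592). As a share of library counts, miR-145a-5p took 0.0397%, 0.0181% and 0.0245% of sEVs replicates 1, 2 and 3, against 0.0400%, 0.0832% and 0.0519% of lEVs replicates 1, 2 and 3. The sEVs shares were again the lower ones, in a table where the shares of 45.5% of the tested miRNAs did not overlap between the fractions, but between sEVs replicate 1 (interval 0.0268% to 0.0567%) and lEVs replicate 1 (0.0241% to 0.0625%) no difference was detectable at this depth.

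The side of the threshold on which miR-145a-5p fell depended on the setting. It was called lower in sEVs with library totals (edgeR, log2 fold change -1.16; adjusted p = 0.0441), in DESeq2 (-0.98; 0.0480), in limma voom (-1.05; 0.0497), without the filter on low counts (edgeR, -1.04; 0.00316), without sEVs replicate 1 (edgeR, -1.30; 0.0392) and without lEVs replicate 1 (edgeR, -1.10; 0.00448). Over all 15 alternatives its adjusted p ranged from 0.00316 to 0.158, and its log2 fold change stayed below 0 throughout, between -1.30 and -0.78. Relative to the median of all tested miRNAs, which moved from -0.04 with TMM factors to -0.18 with library totals, miR-143-3p stood at 0.69 on either scale and miR-145a-5p at -0.97 on either scale (log2).

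**Figure D1:**
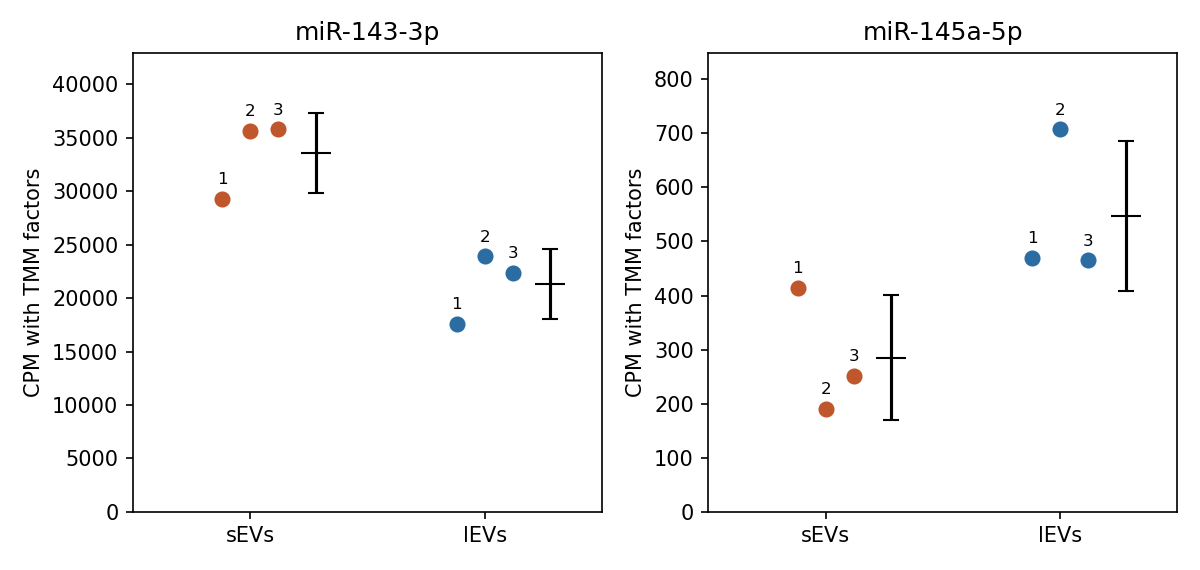
CPM with TMM factors (vertical axes, starting at 0) of miR-143-3p (left) and miR-145a-5p (right) in the 3 sEVs and 3 lEVs libraries; points are libraries numbered by replicate, and the bars beside them are the mean and SD. The sEVs points of miR-143-3p all lie above the lEVs points, and those of miR-145a-5p all lie below, on a vertical scale that is much smaller.

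In the plot of all tested miRNAs, miR-143-3p stood 12th in mean CPM over the 6 libraries and miR-145a-5p 83rd of 145. Within single libraries miR-143-3p was between 9th and 12th in sEVs, and between 10th and 15th in lEVs. miR-145a-5p was between 78th and 113th in sEVs, and between 67th and 81st in lEVs. In the order of levels the neighbours of miR-143-3p were let-7a-5p above it and miR-26a-5p below it. let-7a-5p had 31749 ± 669 CPM in sEVs, against 24544 ± 4554 CPM in lEVs, which lies within the spread of miR-143-3p in both fractions, while miR-26a-5p lay below that spread with 22231 ± 1718 CPM in sEVs, against 16773 ± 793 CPM in lEVs (SD, n = 3 each). Next to miR-145a-5p stood miR-423-5p, with 344 ± 25.9 CPM in sEVs, against 539 ± 176 CPM in lEVs, and miR-340-5p, with 435 ± 152 CPM in sEVs, against 383 ± 110 CPM in lEVs (SD, n = 3 each). The spreads of these 3 miRNAs overlapped one another in sEVs and in lEVs.

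**Figure D2:**
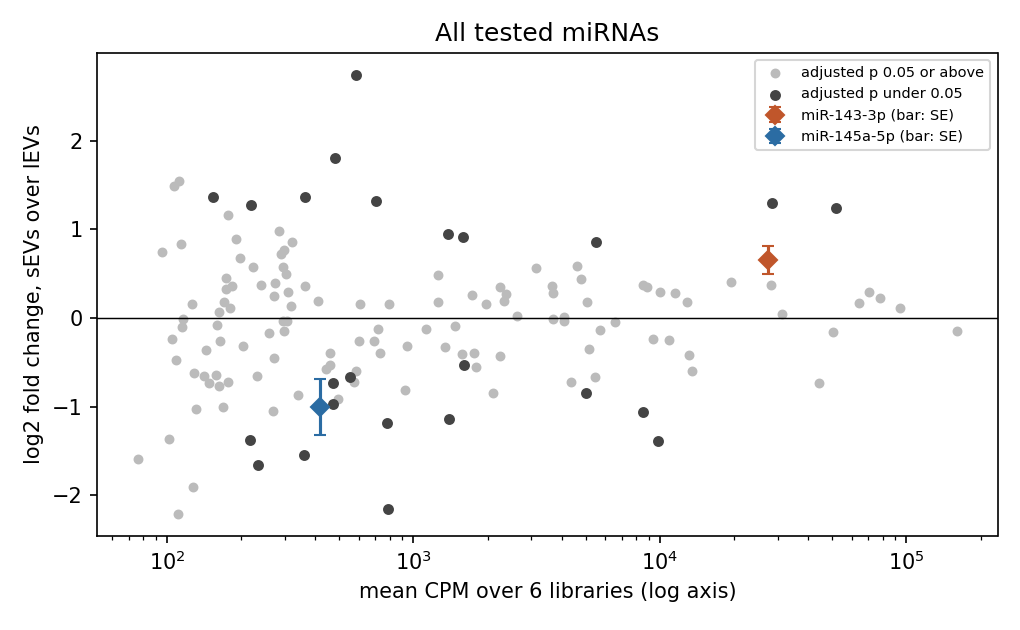
Log2 fold change of sEVs over lEVs (vertical axis) against mean CPM over the 6 libraries (horizontal log axis) for the 145 tested miRNAs; dark points passed an edgeR adjusted p of 0.05, and diamonds with SE bars are the strands of the cluster. miR-143-3p lies high in abundance at 0.65, and miR-145a-5p lies lower in abundance at -1.0.

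The ratio of miR-143-3p to miR-145a-5p counts was 70.7, 188 and 142 in sEVs replicates 1, 2 and 3, against 37.5, 33.8 and 48.2 in lEVs replicates 1, 2 and 3. Every sEVs library had a higher ratio than every lEVs library. Such separation was common: of 17 pairs of miRNAs from neighbouring hairpins, this pair included, 52.9% had ratios that did not overlap. The share over all ratios to miR-143-3p was not counted. The sEVs ratios were also more spread, at 134 ± 58.9 in sEVs, against 39.8 ± 7.44 in lEVs (SD, n = 3 each). The exact 95% intervals for counting error ran from 49.4 to 105, from 118 to 317 and from 98.3 to 214 in sEVs replicates 1, 2 and 3, against 23.9 to 62.7, 27.0 to 43.0 and 35.9 to 66.2 in lEVs replicates 1, 2 and 3. The intervals of the lEVs libraries overlapped one another, as did those of sEVs replicates 2 and 3. That of sEVs replicate 1 stayed below that of sEVs replicate 2 and met those of lEVs replicates 1 and 3. These are ratios of counts; how efficiently each strand was captured in a library was not measured, so they are not ratios of molecules.

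**Figure D3:**
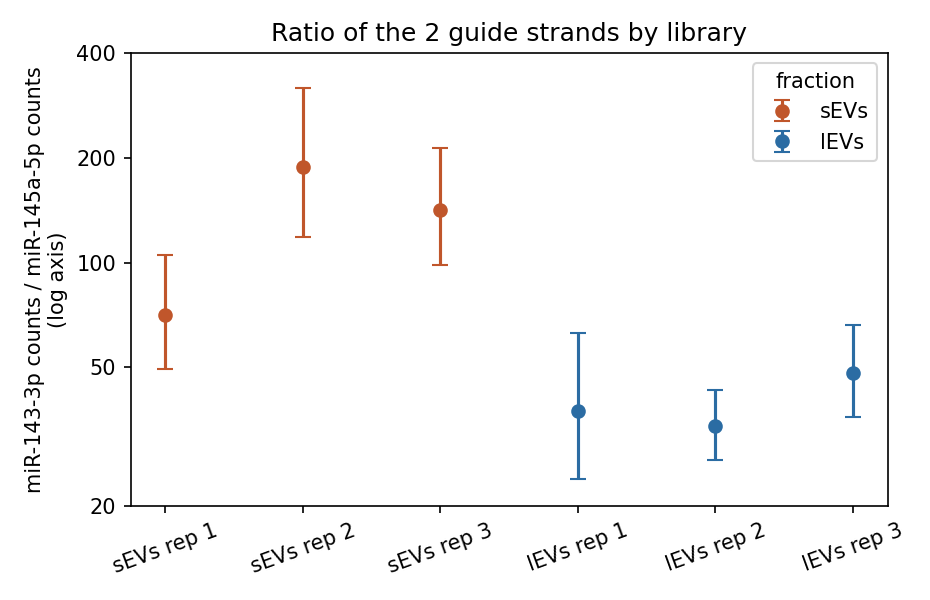
Counts of miR-143-3p divided by counts of miR-145a-5p (vertical log axis) in each library; bars are exact 95% binomial intervals, which cover counting error only. The 3 sEVs ratios, from 70.7 to 188, lie above the 3 lEVs ratios, from 33.8 to 48.2.

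To test the ratio with a spread estimated over many miRNAs, the log2 ratio of miR-143-3p to each of the other 144 tested miRNAs was fitted with limma. The ratio to miR-145a-5p was higher in sEVs by 1.58 on the log2 scale (SE 0.35; limma adjusted p = 0.00583). The exact two-sided permutation test of this ratio alone gave p = 0.1, the smallest possible with 3 against 3 libraries. The ratio passed limma's threshold under each of the 13 alternatives run for it, each library left out included, with log2 differences between 1.30 and 1.96 and adjusted p between 2.7e-06 and 0.0241. Such calls were frequent, and miR-143-3p itself is in every ratio. Of the 144 ratios, 62 passed, 43.1%, of which 59 were higher in sEVs, 41% of those tested. The shift against miR-145a-5p was the 16th highest of the 144.

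The same fit with miR-145a-5p in place of miR-143-3p asked against which miRNAs miR-145a-5p differed. Of its 144 ratios, 49 passed (34%), 48 of them lower in sEVs (33.3%), and its ratio to miR-143-3p was among these (limma adjusted p = 0.0120). The single ratio that was higher in sEVs was that to the joined row miR-3473b/3473e (log2 difference 1.18, SE 0.47; limma adjusted p = 0.0453), named after its values were seen.

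The other arms of both hairpins, usually degraded after processing, were rare. miR-143-5p had 4, 3 and 6 counts in sEVs replicates 1, 2 and 3, against 0, 6 and 6 in lEVs replicates 1, 2 and 3. It made up between 0.0888% and 0.188% of the counts of both Mir143 arms in sEVs, and at most 0.276% in lEVs. miR-145a-3p had 0, 12 and 8 counts in sEVs replicates 1, 2 and 3, against 0, 13 and 9 in lEVs replicates 1, 2 and 3. Both fractions thus had a library in which it was listed at 0. The table held no value of 1, so a 0 may stand for 0 or 1 count.

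Of the Mir145a counts, miR-145a-3p was 0 of 30 in sEVs replicate 1 (exact 95% interval 0% to 11.6%), against 0 of 19 in lEVs replicate 1 (0% to 17.6%). In the libraries where it was seen, the arm made up 14.4% to 40.0% of the Mir145a counts. It was 12 of 30 counts in sEVs replicate 2 (40.0%, exact 95% interval 22.7% to 59.4%) and 8 of 36 in sEVs replicate 3 (22.2%, 10.1% to 39.2%), against 13 of 90 in lEVs replicate 2 (14.4%, 7.92% to 23.4%) and 9 of 54 in lEVs replicate 3 (16.7%, 7.92% to 29.3%). The arm averaged 66.2 ± 63.6 CPM in sEVs, against 70.8 ± 62.7 CPM in lEVs (SD, n = 3 each; two-sided exact permutation p = 1). Neither of these arms passed the filter on low counts, so neither is in the tests across miRNAs, and at these counts no difference between the fractions was detectable.

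Other miRNAs that share a stretch of the genome show how far a pair can drift apart between the fractions. Pairs were formed from tested miRNAs with 1 annotated hairpin gene each, lying on the same strand within 10 kb. This gave 17 pairs in 11 clusters, and their log2 ratios were tested with limma and adjusted over the pairs. The ratio of miR-143-3p to miR-145a-5p had the 3rd largest difference by size (1.58, SE 0.37; limma adjusted p = 0.0187). Of the other 16 pairs, 5 passed; over all 17 pairs, 35.3% passed, and the ratios of 52.9% did not overlap between the fractions. The absolute log2 difference of the other 16 pairs had a median of 0.68 and ranged from 0.03 to 1.97. The call of miR-143-3p and miR-145a-5p among the pairs did not hold when lEVs replicate 1 (adjusted p = 0.0688) or lEVs replicate 2 (0.0657) was left out, with log2 differences of 1.54 and 1.48.

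The 5 other pairs that passed came from 4 clusters. In the cluster on chromosome 17 the ratios of miR-125a-5p to miR-99b-3p and to miR-99b-5p were higher in sEVs by 1.97 (SE 0.28) and 1.12 (SE 0.17; limma adjusted p = 0.00243 for each). On chromosome 12, in the imprinted Dlk1-Dio3 region, the ratio of miR-379-5p to miR-411-5p was lower in sEVs by 1.54 (log2 difference -1.54, SE 0.17; limma adjusted p = 0.00127). The ratios of miR-25-3p to miR-93-5p on chromosome 5 and of miR-191-5p to miR-425-5p on chromosome 9 had log2 differences of -0.81 (SE 0.22) and -0.71 (SE 0.20; limma adjusted p = 0.0313 for each). By contrast, miR-221-3p and miR-222-3p, a pair on chromosome X studied in proliferating smooth muscle, had a log2 difference of -0.09 (SE 0.37; limma adjusted p = 0.864).

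**Figure D4:**
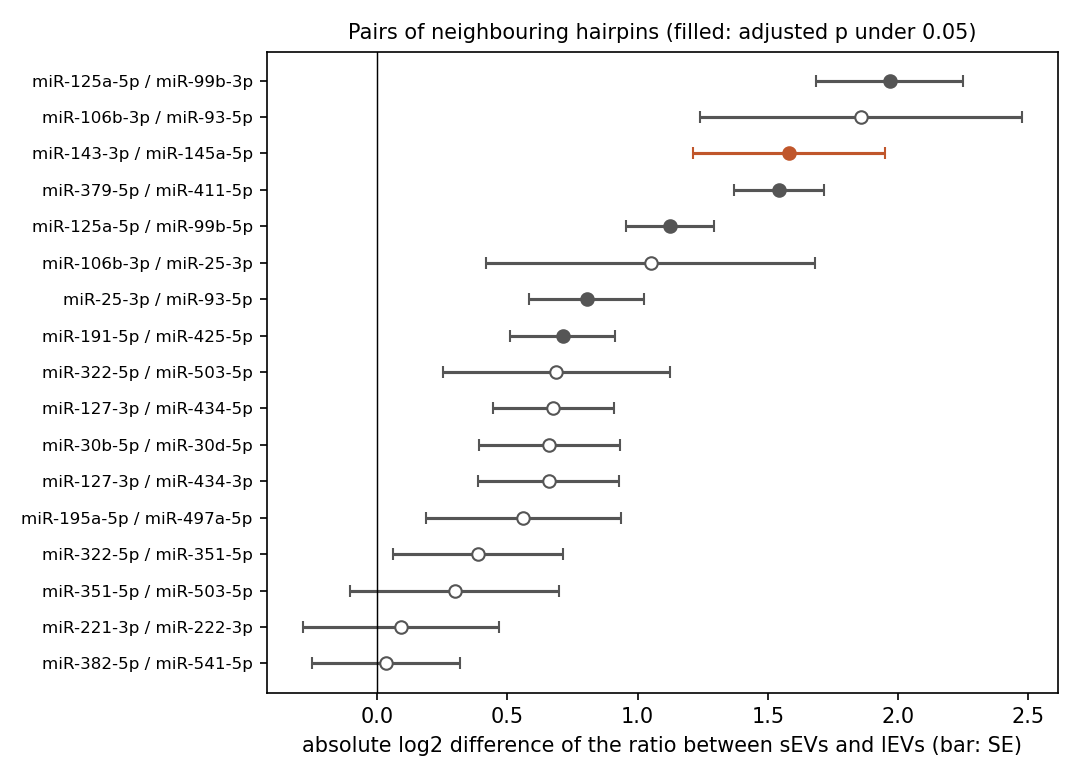
Absolute log2 difference between sEVs and lEVs of the ratio within 17 pairs of miRNAs from neighbouring hairpins (horizontal axis; bars are SE, filled points passed a limma adjusted p of 0.05), sorted by size. miR-143-3p with miR-145a-5p, in orange, is the 3rd from the top at 1.58, and the other pairs range from 0.03 to 1.97.

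Over the 6 libraries of both fractions, the Pearson correlation of log2 CPM between miR-143-3p and miR-145a-5p was -0.76. This is a description over 6 libraries that share their fraction and depth, so it includes the difference between the fractions. Within lEVs, replicate 2 was the highest for both strands (23916 and 707 CPM). Within sEVs, replicate 1 was the lowest for miR-143-3p (29270 CPM) and the highest for miR-145a-5p (414 CPM). By the same correlation over the 6 libraries, the tested miRNAs most like miR-143-3p were let-7g-5p (0.99), miR-30e-5p (0.97) and miR-22-3p (0.95). Of these miR-22-3p passed in edgeR at 1.32 (log2 fold change; adjusted p = 0.00268), while let-7g-5p (0.36; 0.0782) and miR-30e-5p (0.56; 0.0503) were not called. Most like miR-145a-5p were miR-339-5p (0.89), miR-1839-5p (0.88) and miR-744-5p (0.87). miR-339-5p and miR-744-5p were called lower in sEVs (log2 fold changes -1.66 and -0.66; edgeR adjusted p = 0.0154 and 0.0469), and miR-1839-5p had -0.74 (0.129). The call of miR-339-5p held under the 15 alternatives run, while that of miR-744-5p was lost under 8 of them, including DESeq2 (adjusted p = 0.0559) and lEVs replicate 3 left out (0.0930). miR-30e-5p was called higher in sEVs under 7 of the 15.

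The list of miRNAs studied in smooth muscle held 21 names, and 15 of its rows were tested. Of the 13 besides miR-143-3p and miR-145a-5p, 1 rose in sEVs, 1 fell and 11 did not pass, with a median log2 fold change of 0.02, against -0.04 over all 145 tested, of which 8.28% were called higher and 8.97% lower. Over the 15 rows, the pair included, DESeq2 called 3 higher and 2 lower, as did limma voom. Over all 145 tested, DESeq2 called 19 higher and 18 lower, and limma voom 15 higher and 14 lower. The joined row miR-23a-3p/23b-3p rose (log2 fold change 0.86, SE 0.13; edgeR adjusted p = 0.00263), and miR-322-5p fell (-0.53, SE 0.15; 0.0477). The call of miR-322-5p was lost under 9 of 15 alternatives, including library totals (adjusted p = 0.0536) and sEVs replicate 1 left out (0.146). miR-26a-5p missed the threshold in edgeR at 0.41 (log2 fold change; adjusted p = 0.0537) and was called higher in DESeq2 (0.00602) and limma voom (0.0375). miR-21a-5p, which rises in proliferating smooth muscle, averaged 12681 ± 1761 CPM in sEVs, against 10361 ± 2909 CPM in lEVs (SD, n = 3 each). The whole list, miR-143-3p included, took between 8.84% and 10.4% of the counts in sEVs, and between 6.06% and 9.40% in lEVs. Most of its members are expressed in many cell types, so the label of smooth muscle could not be checked by markers of that cell alone. In bulk vesicles, fewer vesicles from a cell type and fewer copies per vesicle cannot be told apart.

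The lists of other cell types in bone moved as follows beside the cluster. Of all 145 tested miRNAs, edgeR called 8.28% higher and 8.97% lower in sEVs. DESeq2 called 19 of them higher and 18 lower, and limma voom 15 higher and 14 lower. The share of all tested miRNAs at an unadjusted p under 0.05 was not counted, so nothing is concluded from list counts at that threshold. Of 13 tested mesenchymal rows, which include both strands, 4 rose in sEVs (miR-143-3p, miR-22-3p, miR-10b-5p and miR-125b-5p), 0 fell and 9 did not pass, with a median log2 fold change of 0.18 and shares of 20.7% to 21.6% in sEVs, against 14.5% to 17.4% in lEVs. Of the 11 besides miR-143-3p and miR-145a-5p, 3 rose and 0 fell. The mesenchymal shares are sums that include miR-143-3p, and they were not computed without it. Of the other rows, miR-125b-5p averaged 72760 ± 4967 CPM in sEVs, against 30716 ± 697 CPM in lEVs (SD, n = 3 each). The most abundant row, miR-199a-3p/199b-3p, averaged 97229 ± 5976 CPM in sEVs, against 90264.5 ± 15722 CPM in lEVs (SD, n = 3 each). The summed shares therefore do not show a rise across the whole list. The 1 mesenchymal row that was lower in sEVs at an unadjusted p under 0.05 in edgeR was miR-145a-5p, which was also the 1 mesenchymal row called lower by DESeq2 and by limma voom. Neither endothelial miRNA passed (miR-126a-3p 0.30 and miR-126a-5p 0.37, log2), though both were higher in sEVs at an unadjusted p under 0.05 and 1 was called in DESeq2 and 0 in limma voom, at shares of 8.24% to 8.60% in sEVs, against 6.52% to 7.80% in lEVs. None of 4 tested rows of skeletal and cardiac muscle passed in edgeR (1 lower at an unadjusted p under 0.05, 1 called lower in DESeq2 and 0 in limma voom), with a median log2 fold change of -0.51 and shares of 2.06% to 2.42% in sEVs, against 2.51% to 3.07% in lEVs. The heart and slow-muscle miRNAs of that list, miR-208a-3p, miR-208b-3p and miR-499-5p, were listed at 0 in each library. Of 7 tested blood cell rows, miR-150-5p rose in sEVs and 6 did not pass, at shares of 4.84% to 5.26% in sEVs, against 4.37% to 6.07% in lEVs. The part of these cell types in the difference of the cluster was not tested.

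Set against 21 miRNAs of these lists within each library, miR-143-3p followed some of them more closely than others. Its ratio was higher in sEVs for 6 of the 21, lower for 1 and did not pass for 14 (limma, adjusted over all 144 ratios). Over all 144 ratios, 41% were higher in sEVs. The 21 include rows named because they were called between the fractions, so they are not a neutral sample. The ratio of miR-143-3p was higher against the skeletal muscle rows miR-133a-3p/133b-3p (log2 difference 1.40, SE 0.22; limma adjusted p = 0.000822) and miR-206-3p (1.25, SE 0.37; 0.0191). Among the blood cell rows it was higher against miR-142a-3p (0.92, SE 0.22; 0.00723) and miR-142a-5p (0.786, SE 0.188; 0.00736). It did not pass against miR-223-3p (0.618, SE 0.238; 0.0552), miR-181a-5p (0.395, SE 0.197; 0.122) or miR-150-5p (-0.248, SE 0.215; 0.344). Of the smooth muscle rows among the 21, it was higher against miR-322-5p (1.19, SE 0.206; 0.00152) and did not pass against the others. In the muscle list it was also higher against miR-486a-5p/486b-5p (0.96, SE 0.33; 0.0338). Against miR-1a-3p, the most abundant tested row of that list, it did not pass (0.47, SE 0.20; 0.0731). The ratio was lower against miR-22-3p (-0.72, SE 0.24; 0.0305). Against the endothelial miR-126a-3p and the fibroblast row miR-199a-3p/199b-3p the differences were 0.36 (SE 0.30; 0.330) and 0.54 (SE 0.32; 0.181).

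For the ratio of miR-145a-5p all 21 differences lay below 0, of which 11 passed as lower in sEVs and 10 did not pass, against 33.3% lower over all its 144 ratios. It was lower against miR-125b-5p (log2 difference -2.16, SE 0.50; limma adjusted p = 0.000491), miR-126a-3p (-1.22, SE 0.50; 0.0457) and miR-21a-5p (-1.24, SE 0.50; 0.0441). In the same lists it did not pass against miR-322-5p of smooth muscle (-0.39, SE 0.477; 0.522) or the mesenchymal miR-199a-3p/199b-3p (-1.04, SE 0.499; 0.0878) and miR-152-3p (-1.11, SE 0.49; 0.0625). Of the blood cell rows it passed against miR-150-5p (-1.83, SE 0.476; 0.0019) and miR-181a-5p (-1.19, SE 0.482; 0.0457). It did not pass against miR-223-3p, miR-142a-3p or miR-142a-5p. Against the skeletal muscle rows miR-133a-3p/133b-3p and miR-206-3p its differences were -0.18 (SE 0.48; 0.758) and -0.33 (SE 0.49; 0.616). The muscle rows differed among themselves. Against miR-1a-3p, the most abundant of them, the difference was -1.12 (SE 0.50; 0.0625), and against miR-486a-5p/486b-5p -0.62 (SE 0.49; 0.312). For any of these miRNAs the ratios of both strands differ by the same 1.58, the difference of the pair itself, so they are not separate findings.

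**Figure D5:**
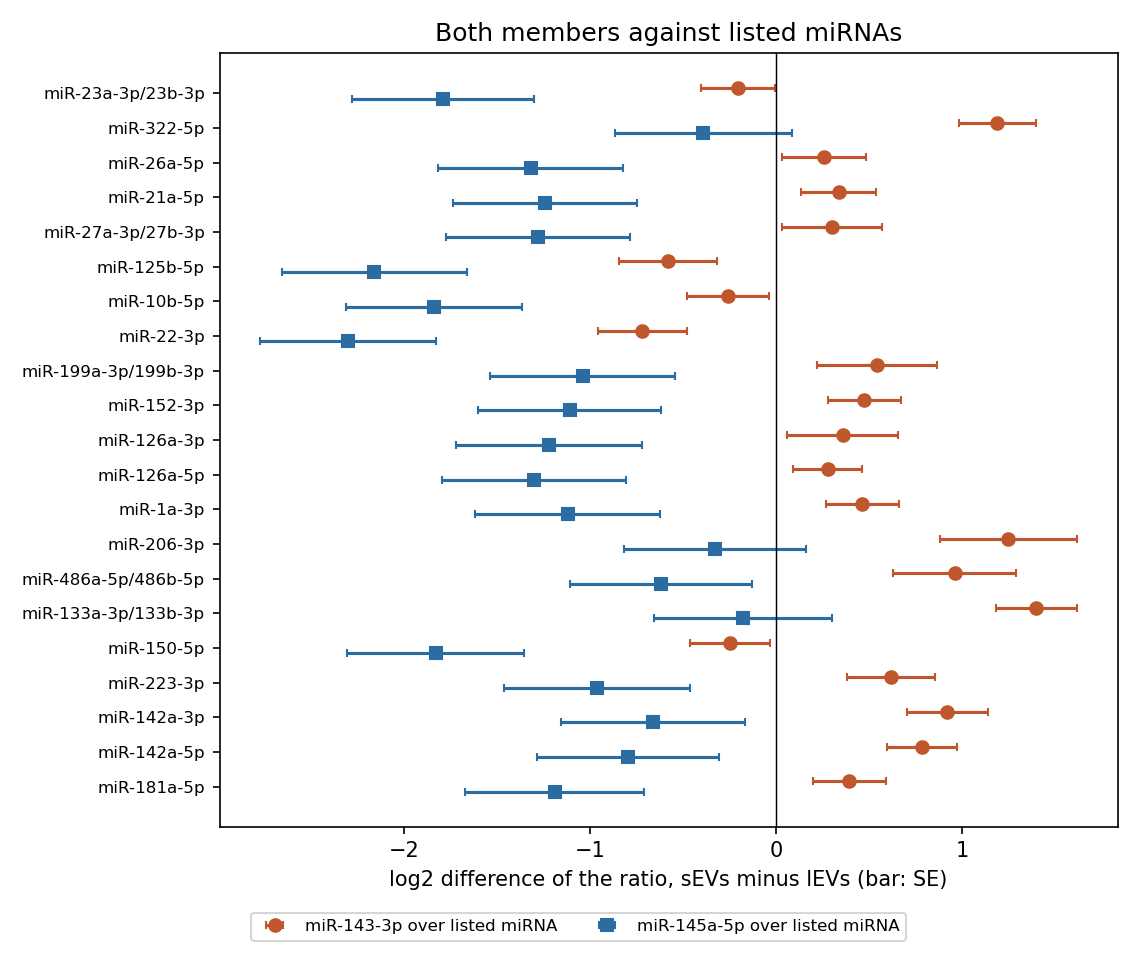
Log2 difference, sEVs minus lEVs, of the ratio of miR-143-3p (circles) and of miR-145a-5p (squares) to 21 listed miRNAs (rows); bars are SE. Circles lie mostly to the right of 0 and squares to the left, with the constant distance of 1.58 between them.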

How the data were processed

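The authors deposited raw whole-number counts per mature miRNA. Per the labels' protocols, libraries were made with a QIAseq miRNA kit and sequenced on a MiSeq as single reads. Per the submitters' processing notes, GRCm38 was the build; DESeq2 1.38.2 and R 4.2.2 are listed without a role. The sources used here do not give the aligner or say whether reads or molecular identifiers were counted. Columns were assigned by the labels.

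The main test was edgeR's quasi-likelihood test (version 4.0.16, R 4.3.3) with TMM factors and filterByExpr (minimum count 10, minimum total 15); of 327 detected miRNAs 145 were kept. Standard errors are the absolute log2 fold change over the square root of F. Ratios were fitted with limma 3.58.1 on log2 CPM with a prior count of 2 and library totals. P-values were adjusted by Benjamini-Hochberg. Alternatives changed the scaling, the filter, the tool (DESeq2 1.42.0, limma voom), the prior count or the depth, added a replicate block, or left out a library. Fits were tested on simulated data. Of the 145 tested miRNAs, 114 had 1 hairpin gene in GENCODE M21. Sequences of both hairpins were not used here.

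The members and lists were chosen with earlier results of these data known. Named miRNAs were the pair, its other arms, the 3 most alike, the neighbours in abundance, and of each list those called and the 4 most abundant; others are marked.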

Additional observations from a re-analysis of the deposited data

How the results depend on the processing

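The ratio of miR-143-3p to miR-145a-5p kept its direction and its call under each of the 13 alternatives run for it. The log2 fold change of miR-143-3p kept its direction under 15 alternatives and its call under 11; with library totals it was 0.505 (adjusted p = 0.109), and with 1 library left out it ranged from 0.528 to 0.7759. That of miR-145a-5p, not called with TMM factors in edgeR, was called under 6 of 15: -1.159 with library totals, -0.9847 in DESeq2, -1.049 in limma voom, -1.04 without the filter on low counts, and, with 1 library left out (range -1.296 to -0.7783), without sEVs replicate 1 or lEVs replicate 1. The count of 25 miRNAs became 53 without the filter (20 higher and 33 lower in sEVs) and 35 with library totals (11 and 24), and, with 1 library left out, ranged from 16 without lEVs replicate 3 to 52 without lEVs replicate 1. With 1 library left out, the 62 ratios to miR-143-3p ranged from 41 without sEVs replicate 3 to 73 without lEVs replicate 1, and the 6 pairs of neighbouring hairpins from 3 without lEVs replicate 2 to 7 without sEVs replicate 1 or 3. Without the filter on low counts 89 ratios were called, and with hairpins within 50 kb 9 pairs. The cause of these shifts was not tested.

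Of the other named miRNAs, 5 that were not called turned sign. With library totals miR-223-3p had -0.08351. With 1 library left out the ranges were -0.03011 to 0.07729 for miR-223-3p, -0.1188 to 0.4315 for miR-340-5p, -0.001764 to 0.3335 for miR-1a-3p, -0.5842 to 0.01622 for miR-486a-5p/486b-5p and -0.01413 to 0.2508 for miR-199a-3p/199b-3p.

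The deviations of same-numbered libraries from their fraction means correlated at -0.041, 0.0201 and 0.35 for replicates 1, 2 and 3, against -0.298 to 0.146 for libraries with different numbers. Only replicate 3 had its highest correlation with its own number, so the numbers were not taken as pairs. With the replicate number as a block, 26 miRNAs were called, miR-143-3p had 0.6615 (adjusted p = 0.0154), miR-145a-5p -1.021 (0.0766), and the ratio 1.581 (0.00775), with 76 ratios called. Depth limits what can be said of miR-145a-5p, at 18 to 77 counts per library, and of the other arms, at 0 to 13.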
